A study of Mus musculus with 8 samples.

Results

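The Paneth cell genes Mmp7, Lyz1, Lyz2, Ang4, Itln1, Habp2, Copz2, Cd24a and Defa3 were followed through a sort of mouse intestinal crypt cells. Every probe set annotated to exactly 1 of these 9 genes was taken, which gave 15 of the 45037 probe sets tested, and 9 of the 18193 genes named by a single-gene probe set. Lyz1 and Cd24a had 3 probe sets each, Ang4 and Habp2 had 2 each, and the other genes had 1 each. RNA was measured on 8 Affymetrix arrays, each from 25 ng of RNA of sorted cells. The sort by surface EphB2, a receptor tyrosine kinase that is most abundant at the crypt base, gave 2 arrays each of EphB2 High, EphB2 Medium and EphB2 Low cells, 1 of each in a first and 1 in a second hybridization. The sort of Lgr5-EGFP knock-in mice by green fluorescence driven from the Lgr5 allele gave 1 array each of Lgr5 High and Lgr5 Low cells, in a hybridization of their own. The labels state C57BL/6 for every array. The age of the mice, the segment of intestine and the number of animals behind an array were not given in the labels used here.

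Paneth cells are secretory cells that sit between the stem cells at the base of small intestinal crypts. They store antimicrobial proteins in large granules and release them into the crypt lumen, and they supply the neighbouring stem cells with Wnt, Notch and EGF ligands. EphB2 and EphB3 signalling positions cells along the crypt. Lgr5 marks the stem cells and not the mature Paneth cells beside them.

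The stretches around the starts of 3 of these genes are printed because Lyz1 and Lyz2 are near copies that share an array, and because Mmp7 had the largest difference between the sorts. RefSeq (GRCm38.p6) held a promoter entry for 7 of the 9 genes. Each stretch runs 5′ to 3′ on the strand of the gene, from 230 bases before an annotated start to 20 bases from it. Mmp7 lies on chr9:7691860-7692109 (plus strand), and its capitals mark ATCAAAG, the reverse complement of CTTTGAT, a core of the site read by TCF/LEF factors of the Wnt pathway:
Mmp7: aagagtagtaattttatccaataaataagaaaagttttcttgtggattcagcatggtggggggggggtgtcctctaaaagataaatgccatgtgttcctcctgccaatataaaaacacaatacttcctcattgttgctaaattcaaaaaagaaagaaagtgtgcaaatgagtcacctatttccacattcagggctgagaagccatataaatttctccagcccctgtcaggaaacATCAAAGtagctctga
Lyz1 (chr10:117292849-117293098) and Lyz2 (chr10:117282253-117282502) lie on the minus strand, and their capitals mark the longest run that both share, of 70 bases:
Lyz1: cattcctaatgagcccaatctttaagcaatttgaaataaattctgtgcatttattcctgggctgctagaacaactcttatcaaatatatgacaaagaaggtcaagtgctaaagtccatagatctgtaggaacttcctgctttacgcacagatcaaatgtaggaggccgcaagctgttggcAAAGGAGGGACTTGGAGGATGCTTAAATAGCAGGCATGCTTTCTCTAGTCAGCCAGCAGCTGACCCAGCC
Lyz2: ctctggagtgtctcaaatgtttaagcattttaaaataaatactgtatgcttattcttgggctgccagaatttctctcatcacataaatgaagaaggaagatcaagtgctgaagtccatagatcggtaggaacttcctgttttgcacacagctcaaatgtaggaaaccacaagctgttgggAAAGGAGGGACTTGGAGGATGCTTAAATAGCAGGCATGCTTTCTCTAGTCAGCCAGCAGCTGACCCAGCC

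The letters CTTTGAT were searched on both strands of the same 250 bases of all 32851 promoter entries, of which 3.18% held them. Of the 7 member genes with an entry 1 did, Mmp7, in the printed stretch, where the match begins at base 5 from the annotated start. The 250 bases searched of the other of its 2 entries held no match. They begin past the end of the printed stretch and so do not include this site. A match of letters is a description of the sequence and not a bound site. The Lyz1 and Lyz2 stretches were identical at 211 of 251 aligned columns (84.1%).

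As a check of the sorts, Lgr5 itself read 9.48 and 9.64 in EphB2 High cells, 7.70 and 8.01 in EphB2 Medium cells and 5.66 and 4.96 in EphB2 Low cells, all as log2 intensity. It read 10.15 in the Lgr5 High array and 5.75 in the Lgr5 Low array. All values below are on this scale, on which a difference of 1 is 2-fold. The summed level of 8 epithelial markers lay between 16.55 and 16.76 on the 8 arrays. Fewer cells of a type and less of an RNA per cell cannot be told apart in such bulk samples. The labels do not say that replicate arrays came from separate mice, and the p-values then cover only the spread among these arrays, which may be technical.

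The EphB2 High and EphB2 Low arrays bear on how Paneth cell RNAs are spread along the crypt axis. All 15 probe sets read higher on both EphB2 High arrays than on either EphB2 Low array, a pattern found in 32.2% of all probe sets. Of the 15, 12 rose (limma, Benjamini-Hochberg adjusted p below 0.05), 0 fell and 3 did not pass, while 15.4% of all probe sets rose. The 12 covered 8 of the 9 genes, all but Ang4. The median difference was 0.81 over the 15 probe sets and -0.01 over all probe sets. Mmp7, Defa3 and the Cd24a probe set 1416034_at kept the call whichever EphB2 array was left out. The number of members called was then 6 and 3 without EphB2 High replicate 1 and 2, 6 and 5 without EphB2 Low replicate 1 and 2, and 9 without either EphB2 Medium array.

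**Figure D1:**
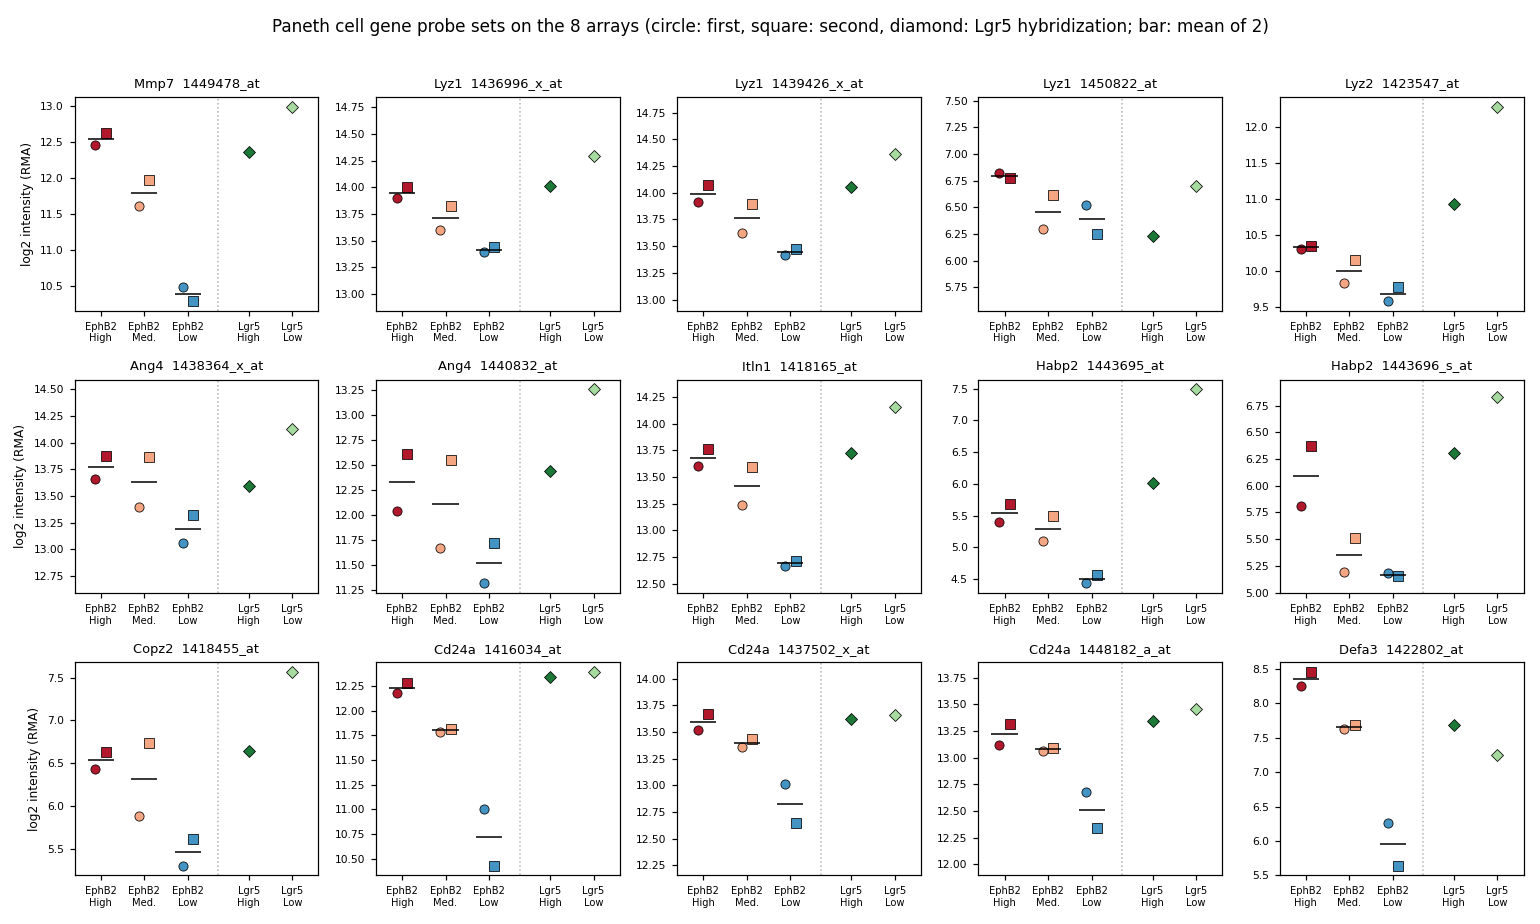
Log2 intensity (vertical axis, RMA values) of each of the 15 probe sets on the 8 arrays, with circles for the first, squares for the second and diamonds for the Lgr5 hybridization, and bars at the mean of 2 arrays. The EphB2 High arrays lie above the EphB2 Low arrays in all 15 panels, and the Lgr5 Low array is the highest of the 8 in 12 of them.

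Among the members, the processing enzyme and a defensin had the largest differences. Mmp7 is the metalloproteinase that in mouse Paneth cells cuts pro-defensins into their active form. It read 12.46 and 12.62 in EphB2 High cells, 11.61 and 11.97 in EphB2 Medium cells and 10.49 and 10.29 in EphB2 Low cells. The 3 groups did not overlap. Mmp7 was higher by 2.15 ± 0.18 in EphB2 High than in EphB2 Low cells (limma SE, n = 2 arrays per group, 4.43-fold, adjusted p = 0.00131), and by 1.40 ± 0.18 in EphB2 Medium than in EphB2 Low cells (adjusted p = 0.0107). The second call was lost without EphB2 Low replicate 2 or EphB2 Medium replicate 2 (adjusted p of 0.0509 and 0.0666).

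Defa3 encodes an alpha-defensin, one of the small membrane-disrupting peptides of the granules. Transcripts of near-identical family members may reach its probe set, so the values are uncertain as those of 1 gene. Other alpha-defensin probe sets, given at the end, differed only by -0.48 to 0.47 between EphB2 High and EphB2 Low cells. Defa3 read 8.24 and 8.46 in EphB2 High cells, 7.63 and 7.68 in EphB2 Medium cells and 6.26 and 5.64 in EphB2 Low cells, again with no overlap. Defa3 was higher by 2.40 ± 0.23 in EphB2 High than in EphB2 Low cells (5.29-fold, limma adjusted p = 0.00185), and by 1.71 ± 0.23 in EphB2 Medium than in EphB2 Low cells (adjusted p = 0.0117). The second call was lost without either EphB2 Medium array (adjusted p of 0.061 and 0.0764).

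The lysozymes, enzymes that split bacterial cell wall peptidoglycan, differed by less. Lyz1, the Paneth cell form in mouse, had 2 probe sets with bright and similar readings. Whether transcripts of its near copy Lyz2 reach these probe sets was not tested. On 1439426_x_at it read 13.91 and 14.07 in EphB2 High cells, 13.62 and 13.90 in EphB2 Medium cells and 13.42 and 13.47 in EphB2 Low cells. These 3 groups did not overlap, and the highest value of any probe set on an array lay between 14.58 and 14.70, close above them. Whether the top of the scale limited the differences was not tested. Lyz1 rose by 0.55 ± 0.15 on this probe set (limma adjusted p = 0.0447) and by 0.53 ± 0.14 on 1436996_x_at (adjusted p = 0.0384). Both calls were lost whichever EphB2 array was left out, with adjusted p between 0.0538 and 0.206. The probe set 1450822_at was dim, at 6.82 and 6.77 in EphB2 High cells and 6.53 and 6.25 in EphB2 Low cells. Its difference of 0.41 ± 0.17 did not pass (limma adjusted p = 0.142). Over the 8 arrays its Pearson correlation was 0.48 with 1436996_x_at and 0.49 with 1439426_x_at.

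Lyz2 encodes the lysozyme of mouse macrophages and neutrophils. It read 10.31 and 10.35 in EphB2 High cells, 9.83 and 10.15 in EphB2 Medium cells and 9.58 and 9.78 in EphB2 Low cells, with no overlap. Lyz2 rose by 0.65 ± 0.16 in EphB2 High against EphB2 Low cells (limma adjusted p = 0.0324). The call was lost without any 1 EphB2 High or EphB2 Low array (adjusted p between 0.0676 and 0.144). Of the 14 macrophage and myeloid markers 2 rose, 1 fell and 11 did not pass. Their summed level was 10.28 to 10.74 in EphB2 High cells, 9.87 to 10.25 in EphB2 Medium cells and 9.32 to 9.57 in EphB2 Low cells. The sum had the same group order as Lyz2, but in every EphB2 group it was lower on the second array, where Lyz2 was higher. Its brightest marker was Cd14, at 10.07 and 9.59 in EphB2 High cells. The part of myeloid cells in the Lyz2 difference was not tested. The 2 that rose were Cd14, the lipopolysaccharide co-receptor gene (1.98 ± 0.23, adjusted p = 0.00296), and the lysosomal gene Cd68 (1.44 ± 0.41, adjusted p = 0.0471). The mannose receptor gene Mrc1 fell by 1.18 (SE 0.20). The macrophage receptor genes Csf1r and Adgre1, named after their values were seen, read 5.39 to 5.82 and 3.33 to 3.74 on the EphB2 arrays, below the median of all values (6.16). Of the 14 markers 10 were below the median on all 8 arrays.

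Ang4, an angiogenin with microbicidal activity, read 13.66 and 13.87 in EphB2 High cells, 13.39 and 13.87 in EphB2 Medium cells and 13.06 and 13.32 in EphB2 Low cells on 1438364_x_at. EphB2 High and EphB2 Low did not overlap, while the second EphB2 Medium array reached the EphB2 High arrays. The difference of 0.58 ± 0.21 between EphB2 High and EphB2 Low did not pass (limma adjusted p = 0.0955), and neither did that on 1440832_at (0.81 ± 0.35, adjusted p = 0.152). With the hybridization as a block both passed (adjusted p = 0.027 and 0.019), which made 14 of the 15 probe sets, while 17.6% of all probe sets rose in that fit against 15.4% without the block. With a trended, robust prior 1438364_x_at passed too (adjusted p = 0.0299). Within the first and the second hybridization the difference was 0.61 and 0.55 on 1438364_x_at, and 0.73 and 0.89 on 1440832_at.

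Itln1 encodes intelectin, a lectin that binds microbial sugars. It read 13.60 and 13.76 in EphB2 High cells, 13.24 and 13.59 in EphB2 Medium cells and 12.67 and 12.71 in EphB2 Low cells. The groups did not overlap, although the second EphB2 Medium array came close to the first EphB2 High array. Itln1 rose by 0.99 ± 0.17 in EphB2 High cells (limma adjusted p = 0.00857) and by 0.72 ± 0.17 in EphB2 Medium cells (adjusted p = 0.0382), both against EphB2 Low cells. Omitting EphB2 High replicate 2 ended the first call (adjusted p = 0.0603), and omitting any 1 EphB2 array ended the second (adjusted p between 0.0707 and 0.169).

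Habp2 and Copz2 were dim. Habp2 encodes a secreted serine protease that binds hyaluronan. On 1443695_at it read 5.40 and 5.69 in EphB2 High cells, 5.10 and 5.50 in EphB2 Medium cells and 4.43 and 4.57 in EphB2 Low cells. EphB2 Low lay below both other groups, which overlapped. Habp2 rose there by 1.04 ± 0.19 in EphB2 High cells (limma adjusted p = 0.0117) and by 0.80 ± 0.19 in EphB2 Medium cells (adjusted p = 0.0444). On 1443696_s_at it read 5.81 and 6.37 in EphB2 High cells, 5.19 and 5.51 in EphB2 Medium cells and 5.18 and 5.15 in EphB2 Low cells. The probe sets thus disagreed on EphB2 Medium cells. On 1443696_s_at the EphB2 High difference was 0.92 ± 0.22 (adjusted p = 0.029) and the EphB2 Medium difference 0.18 ± 0.22 (adjusted p = 0.665). The EphB2 High calls were lost without EphB2 High replicate 2 or EphB2 Low replicate 1, and for 1443696_s_at also without EphB2 Low replicate 2 (adjusted p between 0.0522 and 0.119). The EphB2 Medium call was lost without any 1 array (adjusted p between 0.0693 and 0.189) and with a trended, robust prior (0.0535).

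Copz2 encodes a zeta subunit of the COPI coat, which carries cargo between Golgi and endoplasmic reticulum. It read 6.44 and 6.63 in EphB2 High cells, 5.88 and 6.74 in EphB2 Medium cells and 5.30 and 5.61 in EphB2 Low cells. The second EphB2 Medium array was the highest of the 6 and the first lay below both EphB2 High arrays. Copz2 rose by 1.08 ± 0.30 in EphB2 High cells (limma adjusted p = 0.0445), a call lost without any 1 EphB2 High or EphB2 Low array (adjusted p between 0.102 and 0.187). In EphB2 Medium cells it was 0.85 ± 0.30 above EphB2 Low (adjusted p = 0.119, and 0.0456 with the hybridization as a block). Of the 8 other COPI coat genes limma called 0, with a median difference of -0.34 between EphB2 High and EphB2 Low. With the block Copa (-0.45, adjusted p = 0.046) and Copb2 (-0.57, adjusted p = 0.0223) passed, both coat subunit genes, against 0.0513 and 0.0637 without it.

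Cd24a encodes a small surface glycoprotein by which Paneth cells can be sorted, and which other crypt cells also carry. On 1416034_at it read 12.17 and 12.28 in EphB2 High cells, 11.78 and 11.82 in EphB2 Medium cells and 11.01 and 10.43 in EphB2 Low cells, with no overlap. Cd24a rose on it by 1.51 ± 0.21 in EphB2 High cells (limma adjusted p = 0.00488) and by 1.08 ± 0.21 in EphB2 Medium cells (adjusted p = 0.0248). The second call was kept only without EphB2 Low replicate 1, and otherwise had an adjusted p between 0.0542 and 0.118. The differences between EphB2 High and EphB2 Low were 0.76 ± 0.17 on 1437502_x_at (adjusted p = 0.0204) and 0.71 ± 0.17 on 1448182_a_at (adjusted p = 0.0251). Both calls were lost without EphB2 High replicate 1 or 2 or EphB2 Low replicate 2, and that on 1448182_a_at also without either EphB2 Medium array (adjusted p between 0.0503 and 0.136). Of 6 tuft cell markers 3 rose, with summed levels of 10.37 to 10.92 in EphB2 High cells and 8.30 to 8.87 in EphB2 Low cells. The part of tuft cells in the Cd24a values was not tested.

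The step between EphB2 High and EphB2 Medium cells was smaller in the median than that between EphB2 Medium and Low (0.25 against 0.57). It was the larger step for Habp2 1443696_s_at (0.74 against 0.18), Lyz1 1450822_at (0.34 against 0.07) and, narrowly, Lyz2 (0.335 against 0.316). All 15 EphB2 High minus Medium differences were above 0, from 0.14 to 0.75. The arrays did not overlap for 11 probe sets, as for 23.9% of all probe sets. Limma called 0 of the 15, while 0.0178% of all probe sets were called higher. At an unadjusted p below 0.05 there were 3 of the 15, and 5.12% of all probe sets were higher. Mmp7 had the largest of these differences (0.75 ± 0.18, adjusted p = 0.239).

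Between EphB2 Medium and EphB2 Low cells 5 of the 15 rose and 0 fell, while 8.54% of all probe sets rose. They were the probe sets of Mmp7, Defa3 and Itln1, and 1 each of Cd24a and Habp2. The arrays of these groups did not overlap for 13 of the 15, as for 27.8% of all probe sets. With 1 array left out, between 0 and 4 were called, and the 0 was without EphB2 Medium replicate 2.

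The Lgr5 sort takes the stem cell marker itself, so it bears on whether Paneth cell RNAs follow that marker. With 1 array per group its differences have no replicate check. Of the 15 probe sets 14 were lower in the Lgr5 High than in the Lgr5 Low array, with a median difference of -0.47 against -0.05 over all probe sets. Of all probe sets 55% were lower, and of the 6957 that rose in EphB2 High cells 14% were. With a 2-fold threshold and the brighter array above its median, 2 of the 15 were lower and 0 higher, against 2.74% of all probe sets lower.

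**Figure D2:**
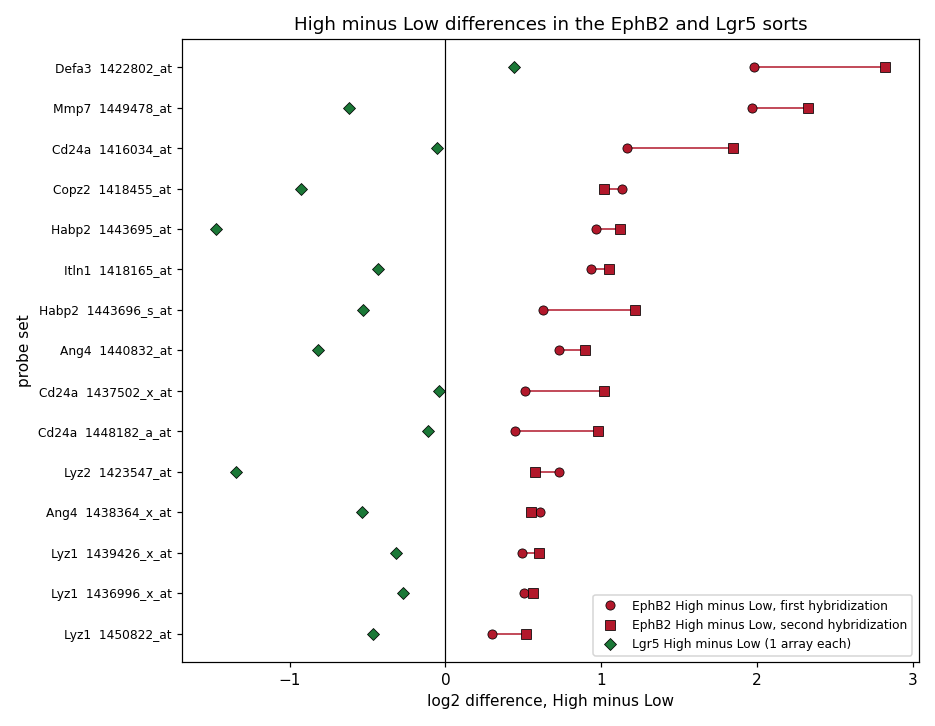
Log2 difference, High minus Low (horizontal axis), of each of the 15 probe sets (vertical axis), with red circles and squares for the EphB2 sort in the first and second hybridization and green diamonds for the Lgr5 sort with 1 array per group. In both hybridizations all 15 EphB2 points lie above 0, and 14 of the 15 Lgr5 points lie below 0, Defa3 being the exception.

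Lyz2 and Habp2 had the largest differences in this sort. Lyz2 read 10.93 in the Lgr5 High array and 12.27 in the Lgr5 Low array (-1.35). Both values were above every EphB2 array, the Lgr5 Low array by 1.92. The summed myeloid level was 10.63 in the Lgr5 High and 10.09 in the Lgr5 Low array. Its brightest marker, Cd14, read 10.10 and 9.21 there. Of the 14 myeloid markers 7 were higher and 7 lower in the Lgr5 High array, so the sum does not speak for the list. The part of myeloid cells in the Lyz2 values of this sort was not tested. Habp2 read 6.01 in the Lgr5 High and 7.49 in the Lgr5 Low array on 1443695_at (-1.47), and differed by -0.53 on 1443696_s_at.

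The genes Mmp7, Copz2, Itln1, Ang4 and Lyz1 were lower in the Lgr5 High array by less than 2-fold. Mmp7 read 12.36 in the Lgr5 High and 12.98 in the Lgr5 Low array (-0.62). Copz2 differed by -0.92 and Itln1 by -0.43. Ang4 differed by -0.53 and -0.82 on its 2 probe sets, and Lyz1 by -0.27, -0.32 and -0.47 on its 3. The Lgr5 Low array was the highest of the 8 for 12 of the 15 probe sets, as for 17.8% of all probe sets, the exceptions being Defa3, the dim Lyz1 probe set and Cd24a 1437502_x_at.

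Cd24a and Defa3 did not share this pattern clearly. The 3 Cd24a probe sets differed by -0.06, -0.04 and -0.11. After renewed quantile normalization the first and second of these were 0.044 and 0.0457, so their sign is not settled. Defa3 read 7.68 in the Lgr5 High and 7.24 in the Lgr5 Low array, higher by 0.44.

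The sorts were compared by taking the EphB2 High minus Low difference from the Lgr5 High minus Low difference in 1 limma fit, in which the single Lgr5 arrays are assumed to vary like the EphB2 arrays. All 15 values were negative, from -2.77 for Mmp7 to -0.81 for Cd24a 1437502_x_at. Limma called 0 of the 15, and 0% of all 45037 probe sets, of which 17.7% had an unadjusted p below 0.05. Without adjustment all 15 were lower, against 11.2% of all probe sets. The smallest adjusted p among the members was 0.0806 for Mmp7 (-2.77 ± 0.31), followed by 0.0825 for Habp2 (1443695_at, -2.52 ± 0.33) and 0.0882 for Lyz2 (-1.998 ± 0.28). With 1 probe set per gene Mmp7 passed, and with a trended, robust prior Mmp7, Lyz2 and Itln1 did.

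**Figure D3:**
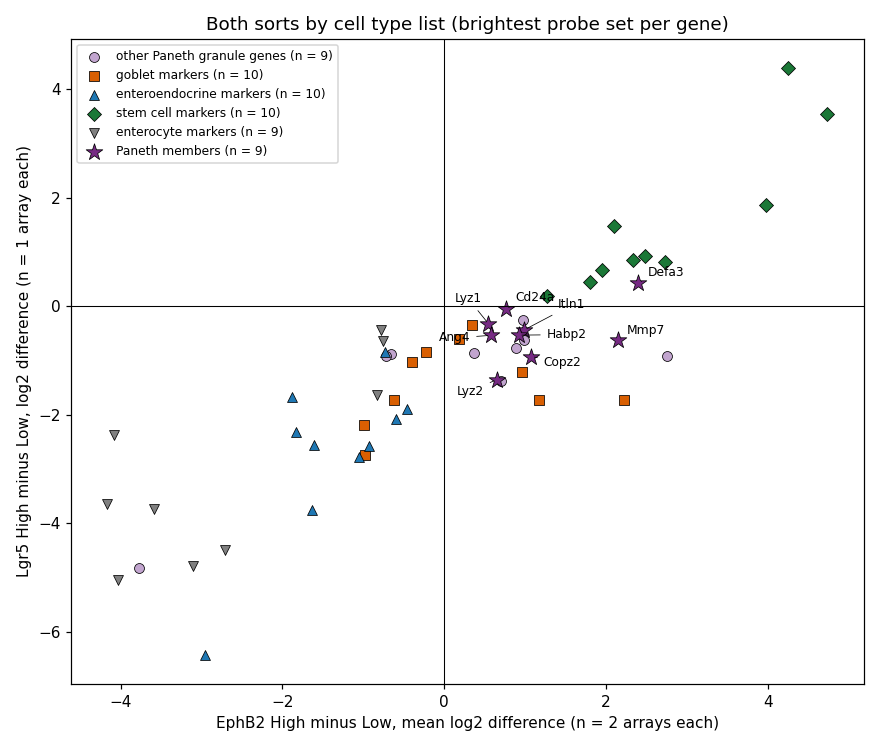
EphB2 High minus Low (horizontal axis, mean log2 difference over 2 arrays per group) against Lgr5 High minus Low (vertical axis, log2 difference with 1 array per group) for the brightest probe set of each gene of 6 groups. Stem cell markers lie above 0 on both axes and enterocyte markers below 0 on both, while 8 of the 9 stars, the Paneth cell members, lie right of 0 and below 0.

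Markers of other crypt cells give the frame for these values. All 10 stem cell markers rose in EphB2 High against EphB2 Low cells and were higher in the Lgr5 High array (medians 2.41 and 0.89). All 9 enterocyte markers fell in EphB2 High cells and were lower in the Lgr5 High array (medians -3.11 and -3.64). Of 10 goblet cell markers 3 rose, 3 fell and 4 did not pass in the EphB2 sort, and all 10 were lower in the Lgr5 High array. Among those that rose, Atoh1 and Spdef also count in the list of Paneth cell specification genes below. Agr2, which did not pass and is named for this overlap, is in both lists too. Retnlb, a secreted antimicrobial protein of goblet cells, differed by 2.23 ± 0.27 in the EphB2 sort (limma adjusted p = 0.0033) and -1.72 in the Lgr5 sort, signs that Mmp7 also had. The mucin gene Muc2 was lower in both (-0.99 ± 0.20, adjusted p = 0.0156, and -2.18). Of 10 enteroendocrine markers 5 fell and 5 did not pass, and all 10 were lower in the Lgr5 High array. Of 6 tuft cell markers 3 rose and 0 fell in the EphB2 sort (median 1.34), and 5 were lower in the Lgr5 High array, 3 of them at least 2-fold (median -0.77). Tuft cell markers thus had on balance the same pair of signs as the members. The part of these cells in the member values was not tested.

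Further genes of a Paneth cell list, not all of them granule genes, differed in both directions. Of 24 listed genes 9 had a single-gene probe set, of which 4 rose, 2 fell and 3 did not pass in EphB2 High against EphB2 Low cells (median 0.71, against 0.01 over all genes). Pla2g2a, elsewhere known as a secreted phospholipase and annotated by RefSeq as a transcribed pseudogene, read 11.46 and 11.56 in EphB2 High cells and 8.73 and 8.77 in EphB2 Low cells, and rose by 2.76 ± 0.15 (limma adjusted p = 0.000504). Clps, the gene of colipase, rose by 0.99 ± 0.19 (adjusted p = 0.0145), and the stress-response gene Nupr1 by 0.89 ± 0.15 (adjusted p = 0.0089). Tesc rose by 0.98 ± 0.27 (adjusted p = 0.0422), but its other probe set did not pass (0.35, adjusted p = 0.265). Reg3a, a lectin gene that enterocytes also express, fell by 3.77 (SE 0.19). All 9 were lower in the Lgr5 High array on their brightest probe sets, with a median of -0.89.

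Niche ligand genes gave no common direction. Of 10 measured 2 rose, 3 fell and 5 did not pass between EphB2 High and EphB2 Low cells. Wnt3, a ligand that Paneth cells supply to stem cells, read 6.33 and 6.71 in EphB2 High cells and 5.001 and 4.38 in EphB2 Low cells, and rose by 1.83 ± 0.25 (limma adjusted p = 0.00468). Egf rose by 0.92 ± 0.25 (adjusted p = 0.04, and 0.0537 with the hybridization as a block). The growth factor gene Ereg fell by 3.61 (SE 0.46), Wnt6 by 0.90 (SE 0.14), and Bst1, a cyclic ADP-ribose synthase gene, by 6.12 (SE 0.46). In the Lgr5 sort 9 of the 10 were lower in the High array, Wnt3 with a difference of -0.40 and Egf with -0.02.

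Of 13 measured genes of Paneth cell specification and the secretory programme 8 rose, 3 fell and 2 did not pass between EphB2 High and EphB2 Low cells. The call of Atoh1, a factor of the secretory lineage named after its values were seen (0.97 ± 0.26, limma adjusted p = 0.0406), was lost with the hybridization as a block (0.0573). Sox9, a transcription factor required for Paneth cells, rose by 1.56 ± 0.14 (limma adjusted p = 0.00152) and was higher in the Lgr5 High array too (0.81). Ephb3, the receptor gene, rose by 2.84 ± 0.16 and differed by 0.75 in the Lgr5 sort. Bhlha15, a factor of secretory cell maturation, rose by 1.80 ± 0.27, and Gfi1, a factor of the secretory lineage, by 0.85 ± 0.16, and both were lower in the Lgr5 High array (-1.41 and -1.54). Xbp1, a factor of the unfolded protein response, fell by 0.78 (SE 0.14). In the Lgr5 sort 11 of the 13 were lower.

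The families of the members were mostly not called. Of 15 metalloproteinase and inhibitor genes other than Mmp7, 12 were below the median on all 8 arrays. In EphB2 High against EphB2 Low cells 3 of the 15 rose and 0 fell, while 15.4% of all probe sets rose. These were the protease gene Mmp14 (0.79 ± 0.20) and the inhibitor genes Timp2 (1.22 ± 0.23) and Timp3 (0.95 ± 0.14). Of 5 ribonuclease A genes other than Ang4, 1 rose, Rnase1 (0.82 ± 0.16, limma adjusted p = 0.0149), and 2 were below the median on all 8 arrays. Among 6 neutrophil, 5 B cell and 4 red blood cell markers, 0, 1 and 0 rose and 1, 0 and 0 fell. Of these markers 5, 4 and 4 were below the median on all 8 arrays.

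The genes with the likest pattern were found by Pearson correlation over the 8 arrays. The candidates were 6167 single-gene probe sets with an SD of at least 0.5 and a maximum above the median of all values. Such a correlation describes 8 arrays that share sorts and hybridizations. Most like Mmp7 were Pla2g2a (0.987), Arfgef3 (0.985), the receptor gene Kit (0.985), Vars (0.983) and Enpp4 (0.982). Most like Lyz1 were Bambi (0.984), Itln1 (0.982), Clps (0.98), Copz2 (0.976) and Dmap1 (0.971). Most like Ang4 were Tomm40 (0.975), Plcb1 (0.973), Cars (0.97), Copz2 (0.965) and Clip1 (0.962). Each of the 3 thus had another member or a gene of the further Paneth cell list among its 5. Members and lists were chosen with earlier results of these data known, so this adds no separate evidence.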

How the data were processed

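The authors deposited log2 intensities per probe set, made with RMA per the submitters' processing notes, which give no version. The labels do not say which arrays entered 1 RMA run. Array medians lay between 6.12 and 6.20, so shifts shared by all genes would not show. Platform annotation named 1 gene for 34945 probe sets, several for 932 and none for 9160, and 64 control probe sets were left out. Of the single-gene probe sets 34741 matched the RefSeq gene table, which updated symbols.

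Limma 3.58.1 (R 4.3.3, lmFit and eBayes, two-sided) was fitted to 45037 probe sets on 8 arrays by group, with 3 residual degrees of freedom, all from EphB2 arrays, and Benjamini-Hochberg adjustment over all probe sets. The script was tested on simulated data. The number of arrays limits the precision. Per the labels, EphB2 arrays of 1 replicate number share a hybridization, which pairs them, and deviations from group means correlated at 0.47 (High and Medium), 0.18 (High and Low) and 0.26 (Medium and Low). The p-values come from the fit without this pairing unless the block is named. The second array read above the first for 14 of the 15 member probe sets in EphB2 High, 15 in EphB2 Medium and 8 in EphB2 Low cells. Members and the 16 gene lists were chosen with earlier results of these data known. The text names all member probe sets, up to 5 genes per list with the smallest p between EphB2 High and Low, and the 5 genes most like Mmp7, Lyz1 and Ang4; exceptions are stated. List values use each gene's brightest probe set, and summed levels are log2 of summed linear values. Alternatives were a hybridization block, a filter on dim probe sets, renewed quantile normalization, 1 probe set per gene, a trended robust prior, other Lgr5 thresholds and leaving out each EphB2 array.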

Additional observations from a re-analysis of the deposited data

Results flagged for a closer look

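For 14 of the 15 probe sets EphB2 High was above EphB2 Low in both hybridizations while Lgr5 High was below Lgr5 Low, as for 12% of all probe sets. The Lgr5 difference minus the EphB2 difference was -2.77 for Mmp7, -1.998 for Lyz2, -2.001 for Copz2 and -1.42 for Itln1. For Lyz1 it was -0.81, -0.86 and -0.88 on the 3 probe sets, for Ang4 -1.11 and -1.63, for Habp2 -2.52 and -1.45, and for Cd24a -1.56, -0.81 and -0.82. These 14 were picked by the signs of both differences, which fixes the negative sign of these values. In the limma test 0 of the 14 passed, with adjusted p between 0.0806 and 0.247, as 0% of all probe sets did. All 14 had an unadjusted limma p below 0.05, which rests on the values that picked them and adds no separate evidence.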

How the results depend on the processing

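With the replicate block (hybridization), Ang4 on both probe sets between EphB2 High and Low and Copz2 between EphB2 Medium and Low gained a call, and no other EphB2 call of a member changed. Leaving out 1 EphB2 array gave 3 to 9 called members and 5898 to 10728 called probe sets between EphB2 High and Low, and 0 to 4 members and 531 to 6240 probe sets between EphB2 Medium and Low. The 135 probe sets called by limma between EphB2 High and Medium became 0 without any 1 array (2741 to 5326 at an unadjusted p below 0.05), 81 with the replicate block, 302 with the dim filter, 248 with 1 probe set per gene and 450 with the trended robust prior. With 1 probe set per gene, which tests fewer features, counts were 6792 (EphB2 High and Low), 4489 (EphB2 Medium and Low), 714 (Lgr5 sort, 1 member) and 33 (difference of the sorts, 1 member). The trended robust prior gave 324 calls of that difference, 3 of them members, and leaving out 1 array gave 0 by limma (5783 to 9284 at an unadjusted p below 0.05). In the Lgr5 sort a 1.5-fold threshold gave 5001 probe sets and 5 members, and 2-fold with no brightness condition gave 3147. Leaving out 1 array turned signs between EphB2 High and Medium for Ang4 (-0.0984 to 0.372 and -0.228 to 0.655) and Copz2 (-0.205 to 0.654), and between EphB2 Medium and Low for Lyz1 1450822_at (-0.0893 to 0.224). Renewed quantile normalization gave 0.044 and 0.0457 for 2 Cd24a probe sets in the Lgr5 sort. The cause of these changes was not tested.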

Other observations

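Alpha-defensin probe sets outside the 9 genes were looked at after their values were seen. That of Defa31 (1422934_x_at) read 13.85 in the Lgr5 High and 14.19 in the Lgr5 Low array, and 7.53 to 8.20 on the 6 EphB2 arrays. The lower Lgr5 array was 5.66 above the highest EphB2 array, a gap reached by 4 of 45037 probe sets, of which the other 3 are unnamed here. Within the EphB2 sort Defa31 differed by -0.48 ± 0.15 between High and Low (limma adjusted p = 0.0656). Defa39 (1429378_x_at) read 13.55 and 13.55 in EphB2 High cells and 13.07 and 13.10 in EphB2 Low cells, a difference of 0.47 ± 0.12 (adjusted p = 0.0385), and 13.68 in the Lgr5 High and 13.91 in the Lgr5 Low array.

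A probe set shared by Defa22 and Defa21 differed by 0.03 ± 0.26 between EphB2 High and Low (limma adjusted p = 0.949), and 1 shared by Defa30 and Defa24 by -0.06 ± 0.12 (adjusted p = 0.792). The latter read 14.04 and 14.04 in EphB2 High cells and 14.11 and 14.08 in EphB2 Low cells. The highest value of any probe set on an array, 14.58 to 14.70, lay close above. Whether the top of the scale limited this difference was not tested. The Lgr5 arrays come from knock-in mice and a hybridization of their own, so mouse line and hybridization cannot be told apart in gaps between Lgr5 and EphB2 arrays.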
